A study of Mus musculus with 8 samples.

Results

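Transcripts of 10 transcription factors that set the effector or memory fate of CD8+ T cells were compared between ASC KO and WT mice. The factors were Tbx21 (T-bet), Eomes, Prdm1 (Blimp-1), Runx3, Zeb2, Bcl6, Tcf7 (TCF-1), Lef1, Bach2 and Nfil3. They were chosen with earlier results of these data known. Their probes were then taken by gene symbol, without use of any signal. The annotation gave 11 probes for 8 of the 10 genes, out of 16593 named genes and 25697 probes on the array. No probe named for Tcf7 or Bach2 was in the annotation used here, so neither gene was analysed here. The ASC KO group held 4 samples of CD8+ T cells from mice without ASC, the adaptor protein encoded by Pycard, and the WT group held 4 samples of CD8+ T cells from wild type mice, all C57BL/6. Each sample was hybridised to 1 single-colour Illumina MouseRef-8 bead array. The labels give no age, stimulation, sort or knockout allele, and they do not say whether replicates came from separate animals, so the spread behind every p-value may be partly technical. In bulk RNA of this kind, fewer cells that express a gene and less transcript per cell cannot be told apart.

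When a CD8+ T cell is activated, its descendants divide between short-lived killer cells and longer-lived memory cells, and transcription factors that oppose each other set the balance. T-bet and Eomes are related T-box factors that switch on genes of the cytotoxic programme, and T-bet works with Zeb2 to drive terminal effector cells. Blimp-1 also promotes terminal effector cells and is opposed by Bcl6, while TCF-1, LEF-1 and Bach2 preserve naive and memory cells. Runx3 keeps CD8 lineage identity and supports cytotoxicity. Nfil3, a basic leucine zipper factor also called E4BP4, is best known for its need in natural killer cell development and also regulates cytokine genes in T cells. Going by its title, the study links ASC to CTL differentiation through T-bet, and the comparison asks whether these factors differ in transcript level without ASC.

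Pycard (probe ILMN_2936476) was detected on 0 of 4 ASC KO arrays and on 4 of 4 WT arrays, at signals of 121.5 ± 2.57 and 500.1 ± 19.0 (SD, n = 4 each). In the knockout its level was at least 12.7-fold lower (adjusted p = 1.15e-09 by limma). Between 42.8% and 45.4% of probes were detected per array, where detection means a deposited detection p under 0.05. The number detected was 11608 ± 65.5 in ASC KO and 11228 ± 230 in WT, without overlap (SD, n = 4 each, two-sided exact permutation p = 0.0286, the smallest that 4 against 4 arrays allow). Its part in the differences between the groups was not tested. The mean signal over all probes was 512.4 ± 9.56 in ASC KO and 553.7 ± 27.5 in WT (SD, n = 4 each, two-sided exact permutation p = 0.0571). Of the T cell markers, both probes of Cd8b1, which encodes the CD8 beta chain, were detected on all 8 arrays, at 5002 or more, as were Cd3d, Cd3e and Cd3g, while the probe of Cd8a was detected on none and that of Cd4 on 1 of 8.

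Of the 11 probes, 6 were detected on all 8 arrays, 1 for each of Tbx21, Eomes, Zeb2, Bcl6, Lef1 and Nfil3. These 6 entered the test, which ran over all 11270 probes detected on at least 4 arrays. Nfil3 was the only one of the 6 called, at a limma adjusted p under 0.05, and it was higher in the knockout. Over all tested probes 0.843% were called, with 0.435% higher in the knockout. Per gene that was 48 higher and 40 lower, or 54.5% higher, and with median scaling over all probes it was 32 and 55, or 36.8% higher. The groups did not overlap at 1 of the 6 member probes, again that of Nfil3, and at 8.12% of all tested probes, with the knockout above in 3.91%. The remaining 5 probes, for Prdm1, Runx3, Zeb2 and Lef1, stayed near background.

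**Figure D1:**
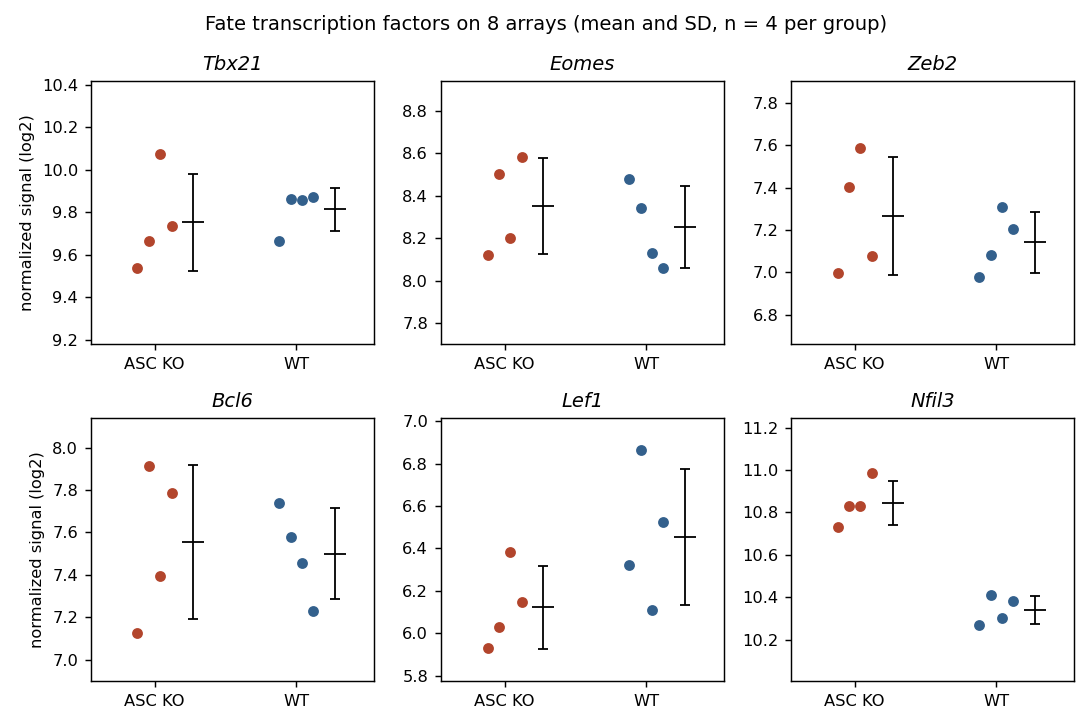
Normalized log2 signal (vertical axis) of the 6 tested members on each array, with ASC KO left of WT; points are arrays, bars the mean and SD, n = 4 per group, and every panel spans the same range of log2 units. All 4 ASC KO points lie above all 4 WT points for Nfil3, and the groups overlap for the other 5 genes.

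The start-site sequences below are shown for Nfil3, the called member, and for Eomes and Bcl6, whose levels varied together across arrays. They come from RefSeq on build GRCm38.p6 and run from 250 bases before to 50 bases after an annotated start, 5′ to 3′ on the gene's strand. Bcl6 has a pair of windows because it has that many start sites in the table. Capitals mark matches, on either strand, to any of 6 motifs, namely a T-box site (TCACAC), a RUNX site (TGTGGT), an NFIL3 site (TTANGTAA), a STAT site (TTCNNNGAA), a TCF/LEF site (CTTTGA) and an AP-1 site (TGANTCA).
Nfil3, chr13:52980990-52981289, minus strand: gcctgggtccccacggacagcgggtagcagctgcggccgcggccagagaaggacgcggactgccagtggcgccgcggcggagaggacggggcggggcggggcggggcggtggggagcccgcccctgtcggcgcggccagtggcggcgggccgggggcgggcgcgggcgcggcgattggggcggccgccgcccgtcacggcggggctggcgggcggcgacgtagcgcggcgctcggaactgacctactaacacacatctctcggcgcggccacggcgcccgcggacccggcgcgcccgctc
Eomes, chr9:118477939-118478238, plus strand: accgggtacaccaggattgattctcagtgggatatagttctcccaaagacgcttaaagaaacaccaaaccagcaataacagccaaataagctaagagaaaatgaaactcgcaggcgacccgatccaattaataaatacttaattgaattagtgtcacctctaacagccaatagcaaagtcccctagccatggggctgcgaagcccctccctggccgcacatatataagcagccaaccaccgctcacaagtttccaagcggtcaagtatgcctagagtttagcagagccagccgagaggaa
Bcl6 start 1, chr16:23988803-23989102, minus strand: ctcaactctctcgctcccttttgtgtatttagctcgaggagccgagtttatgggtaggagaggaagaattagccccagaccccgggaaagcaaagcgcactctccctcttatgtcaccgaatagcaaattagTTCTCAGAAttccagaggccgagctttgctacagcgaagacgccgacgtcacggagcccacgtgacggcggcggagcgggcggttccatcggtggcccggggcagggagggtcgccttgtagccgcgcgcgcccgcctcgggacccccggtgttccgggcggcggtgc
Bcl6 start 2, chr16:23981234-23981533, minus strand: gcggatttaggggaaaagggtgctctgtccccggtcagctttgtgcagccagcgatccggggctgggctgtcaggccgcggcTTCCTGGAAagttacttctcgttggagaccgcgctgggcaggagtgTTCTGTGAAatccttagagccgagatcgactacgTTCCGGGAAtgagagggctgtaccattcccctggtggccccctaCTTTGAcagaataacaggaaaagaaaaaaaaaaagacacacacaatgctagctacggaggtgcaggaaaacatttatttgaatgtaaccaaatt
The windows of Nfil3 and Eomes held none of these motifs, which says only that these letters are not in these windows. The first Bcl6 window held 1 STAT match, and the second held 3 STAT matches and 1 TCF/LEF match, with no bases shared between matches. Among all 32851 windows of the same length, 8.30% held the STAT letters, 16% the TCF/LEF letters, 14.5% the T-box letters, 16.8% the RUNX letters, 2.32% the NFIL3 letters and 7.81% the AP-1 letters. A match is a description of the sequence and not of binding.

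The T-box factors did not differ beyond the spread between arrays. Tbx21 (probe ILMN_2762983) had signals of 844.7, 838.1, 1153.3 and 924.8 on ASC KO arrays 1 to 4, and of 1020.6, 1108.6, 1003.3 and 1087.2 on WT arrays 1 to 4. On this scale 3 knockout arrays lay below every WT array, while knockout replicate 3 lay above every WT array, so the groups overlapped. After normalization the means were 9.75 ± 0.23 in ASC KO and 9.81 ± 0.10 in WT (log2, SD, n = 4 each). The difference was -0.06 ± 0.118 (SE), a fold of 0.96 with a 95% interval of 0.80 to 1.15 (limma adjusted p = 0.874). Leaving out knockout replicate 3 moved it to -0.17 (adjusted p = 0.57), and leaving out knockout replicate 1 moved it to 0.01 (adjusted p = 0.981). Median scaling over all probes gave -0.17 (adjusted p = 0.507). In that setting the median difference of all 11270 tested probes was -0.08, against -0.007 in the main fit.

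Eomes (probe ILMN_1251446) had signals of 385, 428.6, 394.1 and 478.7 in ASC KO and of 508.6, 450.8, 375.5 and 383.4 in WT, in replicate order. High and low arrays occurred in both groups, and the group ranges overlapped widely. Normalized, it averaged 8.35 ± 0.23 in ASC KO and 8.25 ± 0.19 in WT (log2, SD, n = 4 each). The log2 difference was 0.10 ± 0.133 (SE), a fold of 1.07 with a 95% interval of 0.87 to 1.31 (limma adjusted p = 0.813). It was 0.02 when knockout replicate 4 was left out, 0.18 when knockout replicate 1 was left out, and 0.01 with median scaling over all probes.

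Zeb2 was read at 1 of its probes. Probe ILMN_1232121 had signals of 234.1, 255, 292.2 and 238.4 in ASC KO and of 248.4, 248.4, 257.8 and 258.4 in WT. Before normalization the knockout arrays spread on both sides of the WT arrays, with knockout replicate 3 highest of all, as for Tbx21. The log2 difference was 0.12 ± 0.138 (SE), a fold of 1.09 with a 95% interval of 0.88 to 1.35 (limma adjusted p = 0.762), and 0.02 without knockout replicate 3. The other Zeb2 probe, ILMN_2419650, was detected on 0 of 8 arrays, at signals of 113.7 to 129.4 in ASC KO and 116.6 to 123 in WT.

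Bcl6, the repressor that opposes Blimp-1, also did not differ beyond the spread between arrays, which was wide in both groups. Probe ILMN_1230353 had signals of 245.8, 319.5, 269.9 and 321.5 in ASC KO and of 348.7, 308.9, 273.3 and 261.1 in WT. Before normalization the highest array was WT replicate 1 and the lowest was knockout replicate 1, and the groups overlapped. The log2 difference was 0.05 ± 0.175 (SE), a fold of 1.04 with a 95% interval of 0.79 to 1.36 (limma adjusted p = 0.928). Its sign turned under median scaling over all probes (-0.03) and without knockout replicate 2 (-0.06), knockout replicate 4 (-0.02) or WT replicate 4 (-0.04).

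Lef1, which works beside TCF-1 in naive and memory cells, had lower means in the knockout at both of its probes, and neither difference passed the test. Probe ILMN_2648475 had signals of 167.6, 163.5, 187.9 and 175.6 in ASC KO and of 195.6, 228.4, 172.2 and 202.2 in WT. Before normalization knockout replicates 3 and 4 lay above WT replicate 3, and all 4 knockout arrays below the other 3 WT arrays. After it, knockout replicate 3 (6.38) also lay above WT replicate 1 (6.32). The log2 difference was -0.33 ± 0.16 (SE), a fold of 0.79 with a 95% interval of 0.62 to 1.02 (limma adjusted p = 0.417). Without WT replicate 2, the highest array, it was -0.20 (adjusted p = 0.67), and without background correction -0.15 (adjusted p = 0.393). The second probe, ILMN_1239469, was detected on 0 of 4 ASC KO arrays and on 2 of 4 WT arrays, at 126.7 ± 6.77 and 141.2 ± 14.4 (SD, n = 4 each). In a fit over all 25697 probes it differed by -0.43 ± 0.201 on the log2 scale (SE, limma adjusted p = 0.582).

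Nfil3 rose in the knockout. Probe ILMN_2595732 had signals of 1781.6, 1775.1, 1859.9 and 2044 on ASC KO arrays 1 to 4, and of 1484.7, 1578.7, 1326.5 and 1491.2 on WT arrays 1 to 4. Every knockout array lay above every WT array, before and after normalization. The normalized means were 10.85 ± 0.10 in ASC KO and 10.34 ± 0.07 in WT (log2, SD, n = 4 each). The log2 difference was 0.50 ± 0.0827 (SE), a fold of 1.42 with a 95% interval of 1.25 to 1.61 (limma adjusted p = 0.0252, higher in 4 of 4 samples). By its p-value it stood at place 49 of the 11270 tested probes, and 97.6% of them had a smaller difference in either direction.

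The size of the Nfil3 difference changed little with the arrays used, while its call did change. Leaving out 1 array at a time kept the log2 difference between 0.46 and 0.54. The adjusted p stayed under 0.05 only without knockout replicate 1 (0.0327), and was 0.0836, 0.0663, 0.0706 and 0.0502 without WT replicates 1, 2, 3 and 4, and 0.0591, 0.0665 and 0.0706 without knockout replicates 2, 3 and 4. Median scaling over all probes gave 0.40 (adjusted p = 0.0822), while quantile-normalized signals without background correction gave 0.47 (adjusted p = 0.000795).

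**Figure D2:**
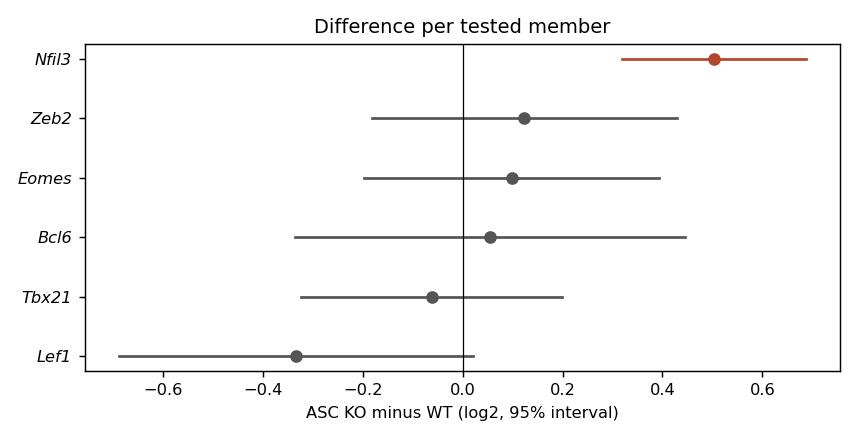
ASC KO minus WT difference on the log2 scale (horizontal axis) of the 6 tested members, as the limma estimate with its 95% interval, n = 4 per group. The interval of Nfil3, from 0.32 to 0.69, lies above 0, and the other 5 intervals include 0.

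**Figure D3:**
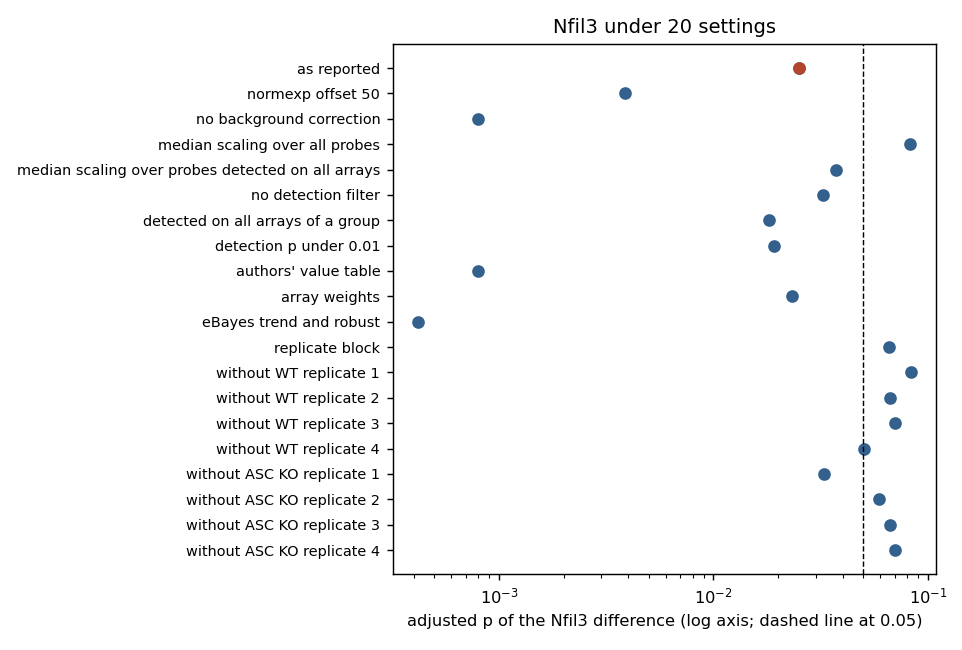
Adjusted p of the Nfil3 difference (horizontal log axis) as reported, in red, and under 19 other settings (rows), with a dashed line at 0.05. The values run from 0.000417 with a variance trend and robust estimation to 0.0836 without WT replicate 1.

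One marker list for other cells had a summed level that did not overlap between the groups. Of the 10 markers of CD4 and regulatory T cells, 9 had a probe and 5 were detected on all 8 arrays at their brightest probe. The summed normalized signal of the 9, on the unlogged scale, ran from 6548 to 7859 in ASC KO and from 4735 to 5200 in WT, without overlap. Markers with more signal weigh more in this sum. Mean signals before normalization were 2753 in ASC KO and 2008 in WT for Ctla4, and 2667 and 2202 for Tnfrsf4. They were 1331 and 1144 for Tnfrsf18, and 223.9 and 166.3 for Foxp3. The probes of Cd4 and Cd40lg stood near background, with Cd4 detected on 1 of 4 ASC KO and 0 of 4 WT arrays and Cd40lg on none. A probe without detection cannot show that such cells were absent, since that of Cd8a was detected on none of these arrays of CD8+ T cells. Foxp3, the lineage factor of regulatory T cells, rose by 1.09 ± 0.138 on the log2 scale at probe ILMN_2635132 (SE, limma adjusted p = 0.00576), and was named after its value was seen. Its probe ILMN_2917180 differed by 1.01 ± 0.241 and did not pass (SE, limma adjusted p = 0.103). That probe was detected on 4 of 4 ASC KO and 1 of 4 WT arrays, and Foxp3 probe ILMN_1225330 on none. Foxp3 was the only one of the 7 tested markers of this list to pass, at 1 probe. Ctla4 (0.63, adjusted p = 0.166), Tnfrsf18 (0.38, adjusted p = 0.124), Il2ra (0.51, adjusted p = 0.24) and Tnfrsf4 (0.44, adjusted p = 0.24) did not pass by limma, nor did Ikzf2 (-0.22, adjusted p = 0.621) or Zbtb7b (-0.0045, adjusted p = 0.991), all as log2 differences. The summed signals of the natural killer list ran from 633.1 to 803.2 in ASC KO and from 511.1 to 847.9 in WT, and those of the myeloid list from 734.4 to 1785 and from 766.8 to 964.4, with overlap in both lists. At the brightest probe of the 7 natural killer markers with a probe, 2 were detected on all 8 arrays, Tyrobp and Fcer1g. Klrb1c was detected on 4 of 4 ASC KO and 3 of 4 WT arrays. Ncr1 and Klri2 were detected on no array. Gata2 was detected on 3 of 4 ASC KO and 1 of 4 WT arrays, and Klra4 probe ILMN_3104704 on 2 of 4 and 0 of 4. Of 5 tested myeloid markers 4 stood above and 1 below 0, with 0 called, up to 1.08 for S100a9 (limma adjusted p = 0.187). The B cell sums ran from 844 to 1176 in ASC KO and from 901.8 to 1075 in WT. Those of erythroid cells and platelets ran from 255.7 to 378.5 and from 190.7 to 262.4, with overlap in both lists. The CD8 T cell list ran from 96681 to 100040 in ASC KO and from 94108 to 99168 in WT. The part of other cells in the Nfil3 difference was not tested.

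Blimp-1 and Runx3 transcripts could not be read on these arrays. Prdm1 probe ILMN_2597923 had signals of 151.8, 125.6, 134.1 and 135.2 in ASC KO and of 129.7, 129, 133.7 and 137 in WT, and was detected on knockout replicate 1 alone. Prdm1 probe ILMN_2744650 had 128.5, 126.7, 124.8 and 123.2 in ASC KO and 140.5, 119.1, 116.8 and 129.1 in WT, and was detected on WT replicate 1 alone. The probes thus disagreed on which array carried signal. Runx3 probe ILMN_2747141 had 130.5, 118.9, 124.9 and 123.9 in ASC KO and 140.3, 114.4, 129.1 and 127.9 in WT, and was also detected on WT replicate 1 alone. The lowest signal of a detected probe was 131.8 to 139.8, depending on the array. In the fit over all 25697 probes these 3 probes differed by 0.22 ± 0.171, 0.0083 ± 0.132 and -0.09 ± 0.132 on the log2 scale (SE, limma adjusted p = 0.788, 0.992 and 0.907). Signals at background give no measure of the transcript level.

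**Figure D4:**
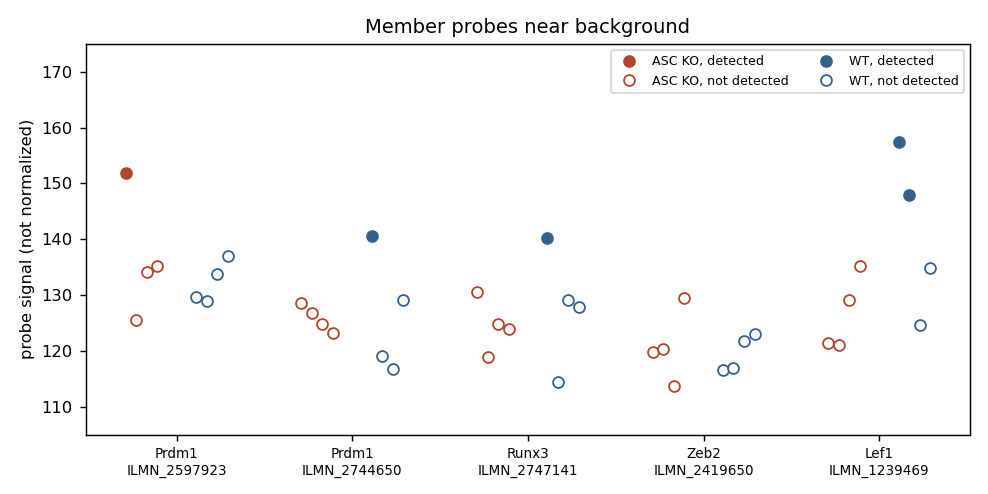
Signal before normalization (vertical axis, which does not start at 0) of the 5 member probes that did not enter the test, with ASC KO left of WT for each probe; filled points were detected on that array and open points were not. Filled points are 1 knockout array for Prdm1 and WT arrays for the second Prdm1 probe (1), Runx3 (1) and Lef1 (2).

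Among the 6 tested members, Eomes and Bcl6 varied together across arrays irrespective of genotype. Over the 8 arrays Pearson's r was 0.927 and Spearman's rho 0.929 on normalized log2 values (exact permutation p = 0.00201 and 0.00223, and 0.0301 and 0.0335 after Benjamini-Hochberg adjustment over 15 pairs). Without the 2 arrays farthest from the median of Eomes, r was 0.896 over 6 arrays. Both genes were high on knockout replicates 2 and 4 and on WT replicate 1, and low on knockout replicate 1 and WT replicate 4. With group means removed, r was 0.937. Of the other 11269 tested probes, 7 had a higher r with Eomes than Bcl6 had, and the points share the arrays and their normalization. Tbx21 and Zeb2 had an r of 0.678 (exact permutation p = 0.0654, adjusted 0.491), which was 0.0827 without the 2 arrays farthest from the median of Tbx21. With group means removed it was 0.792 over all 8 arrays. No other pair passed the adjustment, and for Tbx21 with Eomes r was -0.314 (exact permutation p = 0.451, adjusted 0.929).

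**Figure D5:**
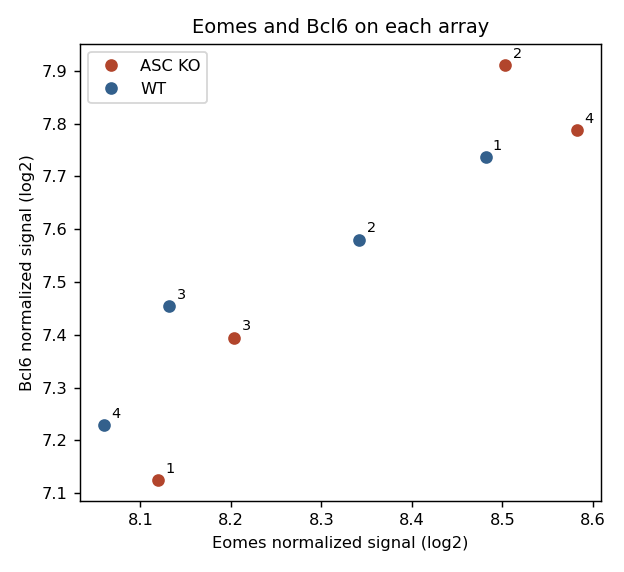
Normalized log2 signal of Bcl6 (vertical axis) against Eomes (horizontal axis) on each of the 8 arrays, coloured by group and numbered by replicate. ASC KO and WT arrays lie along the same band, with r = 0.927.

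Genes around these factors were read through 5 lists of related genes, with 91 measured genes besides repeats. Of these 1 was called, Gzmb, or 1.1%, against 1.13% of all 7759 named genes tested. In 11 other settings the count ran from 0 to 8, so this share depended on the processing. Their median log2 difference was 0.04, with 51 above and 40 below 0, and that of all genes was 0.0002.

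The list of effector genes linked to T-bet or Eomes had 23 measured members, of which 0 were called higher and 1 lower, with a median of -0.03. Of its members 10 stood above and 13 below 0. By limma 4 had an unadjusted p under 0.05, against 13% of all tested probes. Among these Gzmb was lower in the knockout. Gzmm, Fasl (0.37, limma adjusted p = 0.242) and Klrd1 (0.26, adjusted p = 0.333) were higher. Fasl and Klrd1 were named after their values were seen. Gzmb, the granzyme B gene, fell by 0.80 ± 0.149 log2 units (SE, limma adjusted p = 0.0439), at signals of 182.8 ± 7.46 in ASC KO and 251.4 ± 23.8 in WT (SD, n = 4 each). When single arrays were left out, the call remained only without WT replicate 3 (0.0444), and the adjusted p was 0.0541, 0.129 and 0.0587 without WT replicates 1, 2 and 4, and 0.0978, 0.0877, 0.0695 and 0.105 without knockout replicates 1 to 4. Gzmb passed in 10 of 11 other settings, at limma adjusted p down to 0.00402 with a variance trend and robust estimation. With no detection filter it did not pass (0.0799). Without background correction the log2 difference was -0.40 (adjusted p = 0.01865). The share of all named genes called lower was 0.516%. Gzmm, which encodes granzyme M, had 517.9 ± 126 in ASC KO and 380.4 ± 91.4 in WT, a log2 difference of 0.71 ± 0.283 that did not pass (adjusted p = 0.315).

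The list of naive and memory genes linked to TCF-1 and LEF-1 had 15 measured members, 0 called at limma's adjusted p and 4 with an unadjusted p under 0.05, against 13% of all tested probes. Its median was 0.13, with 11 above and 4 below 0. Il7r, the interleukin 7 receptor that sustains naive and memory cells, had 571.0 ± 130 in ASC KO and 385.4 ± 70.2 in WT, a difference of 0.84 ± 0.237 (limma adjusted p = 0.152). Ltb, which encodes lymphotoxin beta, had 1516 ± 19.0 in ASC KO and 2330 ± 408 in WT, without overlap, a difference of -0.50 ± 0.113 (adjusted p = 0.0877). Ltb passed in 4 of 11 other settings, at adjusted p down to 0.00395 with a variance trend and robust estimation. It also passed without WT replicate 4 (0.019). Il7r passed in 3 of 11, down to 0.0463 without background correction. All counts of 11 settings hold both that fit and the fit on the deposited value table, which used nearly the same values.

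Of 29 measured members of the list of other fate regulators, 0 were called by limma, 4 had an unadjusted p under 0.05 and the median was 0.0026. Runx1, a relative of Runx3, had 159.4 ± 14.5 in ASC KO and 192.6 ± 4.64 in WT, without overlap, a difference of -0.62 ± 0.172 (adjusted p = 0.144). Batf3, an AP-1 family factor, had 139.2 ± 10.8 in ASC KO and 160.4 ± 15.7 in WT, a difference of -0.55 ± 0.248 (adjusted p = 0.386). It was detected on 3 of 4 ASC KO and 4 of 4 WT arrays. Both genes had low signals, and their log2 differences depended on the background step. Without background correction Runx1 differed by -0.23 (limma adjusted p = 0.0937) and Batf3 by -0.17 (adjusted p = 0.335).

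The signals upstream of T-bet had 19 measured members, with 0 called by limma, 2 with an unadjusted p under 0.05 and a median of -0.04. Il2ra, the alpha chain of the interleukin 2 receptor, differed by 0.51 ± 0.176 (adjusted p = 0.24), at 171.3 ± 14.9 in ASC KO and 155.4 ± 9.1 in WT. At these low signals its difference was 0.18 without background correction (limma adjusted p = 0.249). Jak2, a kinase of the interleukin 12 receptor, had 890.3 ± 72.6 in ASC KO and 787.2 ± 65.8 in WT, a difference of 0.33 ± 0.0835 (adjusted p = 0.115). Jak2 passed in 3 of 11 other settings, at adjusted p down to 0.026.

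The partners and antagonists of Blimp-1 and Bcl6 had 17 measured members, with 0 called by limma, 1 with an unadjusted p under 0.05 and a median of 0.07, 14 of them above 0. Icos, a costimulatory receptor, had 1936 ± 152 in ASC KO and 1677 ± 102 in WT, a difference of 0.35 ± 0.0847 (adjusted p = 0.109) that passed in 4 of 11 other settings, down to 0.0159. Cxcr5, a chemokine receptor whose gene is active in follicular T cells, had 210.4 ± 7.29 in ASC KO and 203.3 ± 20.6 in WT. Its difference was 0.24 ± 0.136 (adjusted p = 0.5), and 0.12 without background correction.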

How the data were processed

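RNA of 8 samples was amplified into biotinylated cRNA, per the labels' protocols, and, per the submitters' processing notes, GenomeStudio was used. The deposited intensity values were not normalized per the file headers. Next to each stands a detection p-value, per the file headers. The deposited value table holds log2 values, which matched quantile-normalized uncorrected signals, minus each probe's median, within 0.000589. No header states its scaling or centring, its column medians ran from -0.000454 to 0.000527, and it served as an alternative.

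Background was removed from the 25697 intensities with nec in limma (background inferred from the detection p-values, offset 16), followed by quantile normalization and log2. Probes with a detection p under 0.05 on at least 4 of 8 arrays were tested, 11270 in all, with lmFit and eBayes and Benjamini-Hochberg adjustment over these probes, threshold 0.05. Standard errors and 95% intervals are limma's. The number of arrays limits the precision, and the median standard error was 0.109. Of all probes 23978 had 1 gene symbol, 0 several and 1719 none, and 23962 were matched through Entrez identifiers to a GRCm38.p6 gene table. Levels of different probes were not compared.

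The members and lists were chosen with earlier results of these data known. Named genes were Pycard, all members, and from each related list the called genes (up to 4) and the 2 largest differences at the brightest tested probe. Replicate numbers were not used as pairs in the main fit. Deviations of same-numbered samples correlated at 0.0139, 0.107, 0.132 and -0.0999, and 5 of 8 samples correlated best with their own number. These values cannot decide whether the numbers pair the samples. Alternatives changed background, scaling, filter, value source, weights, variance model, block and arrays. In simulated arrays with 200 of 11270 probes changed, 91% of changes of 1 and 48% of changes of 0.5 on the log2 scale were called. The simulated noise was independent between probes, without effects shared by an array, so these rates need not hold for the real arrays. Computations used R 4.3.3 and limma 3.58.1.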

Additional observations from a re-analysis of the deposited data

Results flagged for a closer look

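In 34 groups of 4 arrays (17 named genes), 2 held an array whose gap to its nearest neighbour exceeded Dixon's 95% critical value as a share of the group's range, where chance gives about 1 in 20. Tbx21 on WT replicate 1 was at 9.66 normalized log2 units, against 9.86 to 9.87 on the other WT arrays (ratio 0.915). Its signal before normalization, 1020.6, lay inside the WT range. Il2ra on WT replicate 3 was at 6.03, against 5.37 to 5.39 on the other WT arrays (ratio 0.96).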

How the results depend on the processing

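No alternative called Tbx21, Eomes, Zeb2, Bcl6 or Lef1. Nfil3 was higher in all 11 other settings and all 8 fits without an array. It was called in 9 of the 11, of which the authors' table and the fit without background correction used nearly the same values. The count of member genes called was 0 with median scaling over all probes. That scaling put the median difference of all tested probes at -0.08, against -0.007 in the main fit. Whether replicate numbers pair the samples could not be decided (5 of 8 correlated best with their own number). A block on these numbers gave 0 member genes called (Nfil3 0.50, limma adjusted p = 0.0656). With this block 26 genes were called higher and 20 lower, against 48 and 40. Genes called higher and lower were 96 and 70 with an offset of 50, and 112 and 88 without background correction and with the authors' table. They were 30 and 26 without a detection filter, and 116 and 90 with a variance trend and robust estimation. Related-list genes called were 5, 8, 8, 0 and 8 in those 5 settings, against 1. With the main filter the lists held 91 measured genes, out of 7759 named genes tested. Where 5 or 8 were called, their share was above that of all named genes, unlike in the main fit. Without 1 array, genes higher ran from 14 to 36, genes lower from 15 to 32, and member and related-list genes from 0 to 1 each. The only signs that turned among named genes were those of Tbx21 without knockout replicate 1 and of Bcl6 with median scaling over all probes (-0.0262) and without knockout replicate 2, knockout replicate 4 (-0.023) or WT replicate 4 (-0.0358). Without 1 array Tbx21 ran from -0.169 to 0.0102 and Bcl6 from -0.0641 to 0.198. The cause of these changes was not tested. The mean over a gene's probes was not run, since no member had 2 tested probes. Signals near background limit Prdm1, Runx3 and Lef1.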
